A study of Mus musculus with 4 samples.

Results

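The cells examined were 749 long-term hematopoietic stem cells (LT-HSCs) whose barcodes end in suffix 1 and that had at least 4899 counts. They were chosen from 818 cells with this suffix in the first of 2 deposited tables, and from 2715 cells in both tables. The highest excluded cell of this suffix had 4819 counts. LT-HSCs are the rare bone marrow cells that renew themselves and replenish all blood lineages, and they accumulate with age. Single-cell ATAC-Seq marks open chromatin with the Tn5 transposase, which inserts adaptors into DNA that is not covered by nucleosomes.

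The study profiled LT-HSCs of C57BL/6JRj mice, which its methods give as female, in 4 pooled samples. The labels of 2 samples name the first table. These were LT-HSCs of mice aged 22 to 28 months that had been sorted with an antibody for high or for low surface CLCA3A1, an old HSC marker of the study. Each sample was a pool of 2500 cells from each of 4 mice, and according to the methods LT-HSCs were lineage-negative, Sca-1-positive, c-Kit-positive cells that lacked CD34 and CD135. No label matches suffix 1 to CLCA3A1high or to CLCA3A1low, so the cells were described as 1 set, with 1 pooled library and no replicate. All values below therefore describe these cells and carry no p-value, and intervals cover counting error only. The mice of a pool cannot be told apart.

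The 749 cells held 12817067 counts in 93513 peaks, with a median of 14020 per cell and a range of 4899 to 81621. A count is a cut site, and since a fragment usually brings 2 cut sites, counts were converted to fragments. All cells were then reduced at random to 2536 fragments, the number in the shallowest cell, so that differences between cells did not come from depth. Each protein-coding gene with the 5000 bp upstream of it was treated as a locus. Of 21911 loci, 17159 held a peak, and these loci contained 79.4% of all fragments. No barcode sequence was shared with the suffix 2 cells of the same table.

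The label of the cells was first compared with marker loci. Slamf1, which encodes the stem cell receptor CD150, had a fragment in 108 cells, or 14.4% (95% Clopper-Pearson interval 11.98 to 17.1%). Procr, which encodes EPCR, had a fragment in 27 cells, or 3.60% (2.39 to 5.20%), and Clca3a1 in 37 cells, or 4.94% (3.502 to 6.75%). Slamf1 held 6 peaks, Procr 1 and Clca3a1 3, against a median of 3 over all loci with a peak. On a scale of fragments per cell and kb of peak they had 0.029, 0.040 and 0.028, against a median of 0.034. At Slamf1, the promoter peak was open in only 8 cells, whereas a peak in the upstream part (chromosome 1, 171761114 to 171763247, GRCm38) was open in 47 cells and an intragenic peak (171772535 to 171774045) in 39. At Clca3a1, the promoter peak (chromosome 3, 144760541 to 144761718) carried the signal in 31 cells.

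Loci of 13 genes active in tissues other than blood, used as background, had together 0.014 fragments per cell and kb of peak, and 5 of them held no peak. The 18 loci of HSC identity genes had 0.025 together, and 17 of them held a peak. Lists of other cell types were not all lower, with 0.019 for myeloid and for mast cell and basophil genes, 0.021 for B cell, 0.024 for endothelial and stromal, 0.026 for T and NK cell and 0.047 for erythroid genes. On this scale the lists did not separate stem cells from other blood cells, and the label rests on the sort. Loci of mature blood cells varied widely. Mpo, the neutrophil peroxidase, had a fragment in 0.935% of cells, and Hba-a1 and Alas2, of the red cell lineage, held no peak. In the same lists Ebf1 and Pax5, transcription factors of B cells, had a fragment in 20.0% and 14.8% of cells, Lck, a T cell kinase, in 14.95%, Csf1r in 12.55%, Elane, the neutrophil elastase, in 9.08% and Klf1, an erythroid factor, in 8.95%, all of them above Procr and Clca3a1. Flt3, which encodes CD135, nevertheless had a fragment in 17.1% of cells (14.5 to 20.0%) and Cd34 in 4.81% (3.39 to 6.59%), although the sort removed cells with either protein. Accessibility of a locus and surface protein are different measurements.

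The most widely open loci were then determined by the share of cells with at least 1 fragment. The median locus was open in 10.0% of the cells at this depth. Only 90 of 17159 loci, or 0.525%, had a fragment in at least 50% of cells, and 128 loci with a peak had none. The share depended on how much peak sequence a locus held. Across loci, summed peak length and mean fragments had a Spearman correlation of 0.79, whereas peak length and fragments per kb had one of 0.016. Loci open in at least 50% of cells held a median of 30 peaks, against 3 over all loci with a peak, and their median of 0.031 fragments per kb was close to that of all loci, 0.034.

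The 12 loci open in most cells, each taken once among loci that share a peak, were accordingly long. The first was the predicted gene model Gm20388, with a fragment in all 749 cells (99.5 to 100%). With its upstream part this model spans 4439.9 kb on chromosome 8 (119910841 to 124345722), holds 513 peaks and covers many other genes, among them Irf8 and Cox4i1, so its value is not that of 1 gene. The annotated model of Fgfr2, a fibroblast growth factor receptor, likewise runs over 2965.9 kb and other genes, and was open in 96.5% of cells. Gm37240 and Atp5o, open in 70.8% and 65.7% of cells, also share peaks with neighbouring genes.

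Loci without such overlap followed. Pde4d, a cAMP phosphodiesterase with 72 peaks, was open in 78.5% of cells (75.4 to 81.4%) and Zbtb20, a zinc finger repressor, in 72.2% (68.9 to 75.4%). Arid1b, a subunit of the BAF chromatin remodelling complex, was open in 70.4% and Zmiz1, a transcriptional coregulator, in 69.6%. Etv6, an ETS family repressor needed by adult HSCs, was open in 66.9% (63.4 to 70.2%) and Igf1r, the receptor of insulin-like growth factor 1, in 65.4%. The remaining loci of the 12 were Camta1, a transcription activator that shares peaks with Per3 and Vamp3, at 74.4%, and Nav2, a neuron navigator gene, at 67.3%.

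Among genes with known roles in HSCs, Mecom, which encodes the self-renewal factor EVI1, had a fragment in 469 cells (62.6%, 59.0 to 66.1%). It had 52 peaks, and 280 cells had no fragment, 274 had 1, 124 had 2 and 71 had 3 or more. Its broadest peak, 9014 bp within the gene (chromosome 3, 30504153 to 30513166), was open in 146 cells and the neighbouring peak (30513794 to 30515858) in 68, while the remaining 50 peaks were each open in fewer than 50 cells. Mecom was thus open in most cells through many peaks, most of which were sampled rarely. No cell had a fragment in a peak within 1000 bp of its annotated start. Runx1, a core blood transcription factor, was open in 54.2% of cells (50.6 to 57.8%), Meis1 in 46.7% (43.1 to 50.4%) and Erg in 39.9% (36.4 to 43.5%). Runx1 was open in more cells than Meis1 with less peak sequence, 26.2 kb against 39.98 kb. Of the 18 HSC identity loci 1 was open in at least 50% of cells, and of 12 blood transcription factor loci 2, against 0.525% of all loci with a peak. These loci, Mecom, Runx1 and Etv6, hold 52, 30 and 70 peaks, against a median of 3. The counts were therefore not read as a property of the lists.

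**Figure D1:**
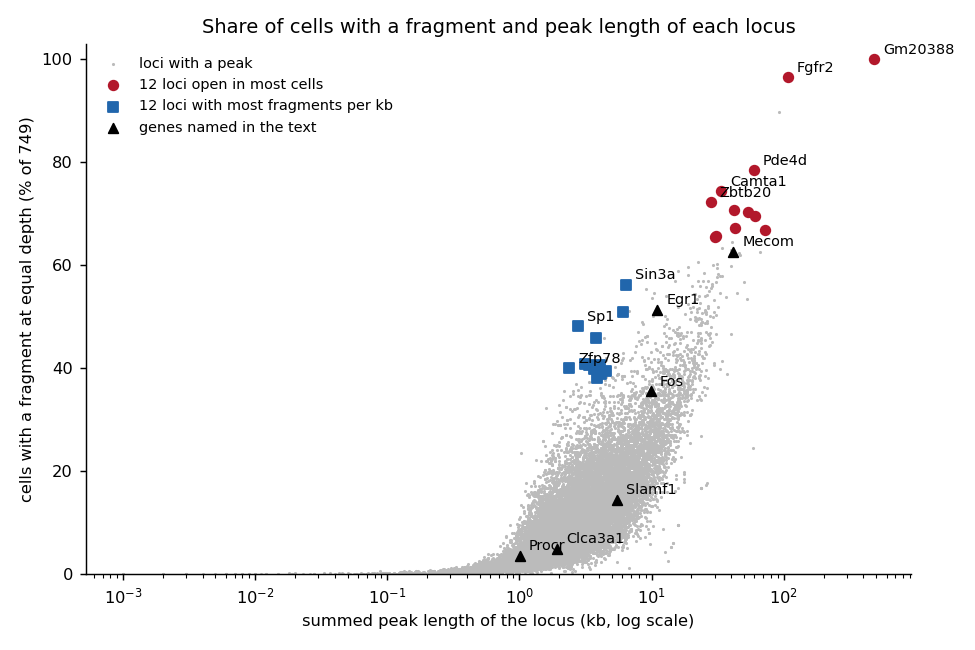
Each point is a locus with a peak; the x axis gives its summed peak length in kb on a log scale and the y axis the percentage of the 749 cells with a fragment at equal depth. Shares rose with peak length up to 100% at Gm20388, and squares mark compact loci such as Sp1 (48.2% with 2.78 kb of peak) that lie above the main cloud.

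A different order was found when openness was expressed per kb of peak. Among loci with at least 0.5 fragments per cell, Sp1, a ubiquitous GC-box binding factor, had the most with 0.235 fragments per cell and kb, from 2 peaks of 2.78 kb in all, and was open in 48.2% of cells (44.6 to 51.8%). Zfp78, a zinc finger gene, followed with 0.222, and Khsrp, which encodes an RNA-binding protein, with 0.173. Cdkn2d, which encodes the cell cycle inhibitor p19INK4d, had 0.160 and shares a peak with Kri1. The remaining 8 loci lay between 0.111 and 0.159. They were Ubxn6, Cep57, Fam72a, Fbrs, Sin3a, Tarbp2, Ing1 and Zfp687. Sin3a, the scaffold of a histone deacetylase complex, was the only one of the 12 beside Ing1 that was open in more than 50% of cells, with 56.2% (52.6 to 59.8%) from a single promoter peak of 6.44 kb.

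When only peaks within 1000 bp of a gene start were counted, 5 loci were open in at least 50% of cells. In the order of loci that do not share a promoter peak, Sin3a again led with 56.2%, followed by Hjurp with 51.5%, Zbtb20 with 50.3%, Zfp36 with 50.1% and Jun with 48.6%. Zfp36, which encodes an mRNA decay factor, and Jun are immediate early genes, as are Ier2 and Jund, which were also among the first 12 with 44.9% and 44.3%. Hjurp rests on 20.97 kb of peak. The order by promoter window was added to the fixed rules for naming loci.

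Variation between cells was next measured at each locus as the variance of fragments over their mean. Random sampling of equal cells gives a value close to 1, and larger values mean that cells differ more than sampling allows. Of the 17159 loci, 9255 had at least 0.1 fragments per cell and were assessed, and 7904 were too sparse. Most loci differed little from sampling. The median was 1.06 and the central 90% of loci lay between 0.967 and 1.22. A value of 1.5 or more was found at 67 loci, 0.724% of those assessed, and a value of 1.2 or more at 655 loci (7.08%). At this depth, loci with moderate differences between cells cannot be told from those without.

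Much of the excess came from single cells. Without the highest cell of each locus, the number of loci at 1.5 or more fell from 67 to 15, all of which were among the 67. The 67 highest cells were 25 different cells, 14 of which were highest at several loci. The clearest case was Fli1, an ETS factor of megakaryocytes and HSCs (chromosome 9, 32422204 to 32542861), with a variance over mean of 4.01. Of the 749 cells, 439 had no fragment at Fli1, 236 had 1, 54 had 2 and 20 had 3 or more. The highest cell had 37 and the next had 6. Without that cell, the value at Fli1 was 1.11, within the central range of all loci. Which fragments of that cell were kept also mattered, and over 10 random reductions the value at Fli1 ran from 2.08 to 4.55.

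The same was true for several other named loci. Kcnip2, a potassium channel partner, had 14 fragments in 1 cell and at most 2 in any other, and its value was 3.30 with and 1.065 without that cell. Osr2, a developmental zinc finger gene, had 14 and at most 2 (3.12 and 1.07), and Fgf8, a growth factor gene, had 12 and at most 2 (2.35 and 0.965). Csf1r, the receptor for macrophage colony-stimulating factor, had 12 in 1 cell and at most 3 in the others. Its value was 2.20 with that cell and 1.11 without it. Clec14a, an endothelial lectin gene, gave 2.01 and 1.02, St14, a membrane protease gene, 2.43 and 1.14, and Ccnd3, which encodes cyclin D3, 1.95 and 1.14. Spred3, Klhl2 and Esrrg lay between 1.80 and 1.89 with the highest cell and between 1.049 and 1.084 without it. Mroh2a, whose 2 peaks cover 58.1 kb shared with the Ugt1a genes and Hjurp, fell from 2.73 to 1.30. Mroh2a thus stayed above the central range of all loci, and its value was 6.395 in the suffix 2 cells. At the other loci named here, the excess described 1 cell of this set, and no broader difference among the 749 cells was detected at this depth. In the suffix 2 cells Fgf8 had 1.56, while the rest of these loci lay between 0.903 at Esrrg and 1.23 at Klhl2.

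**Figure D2:**
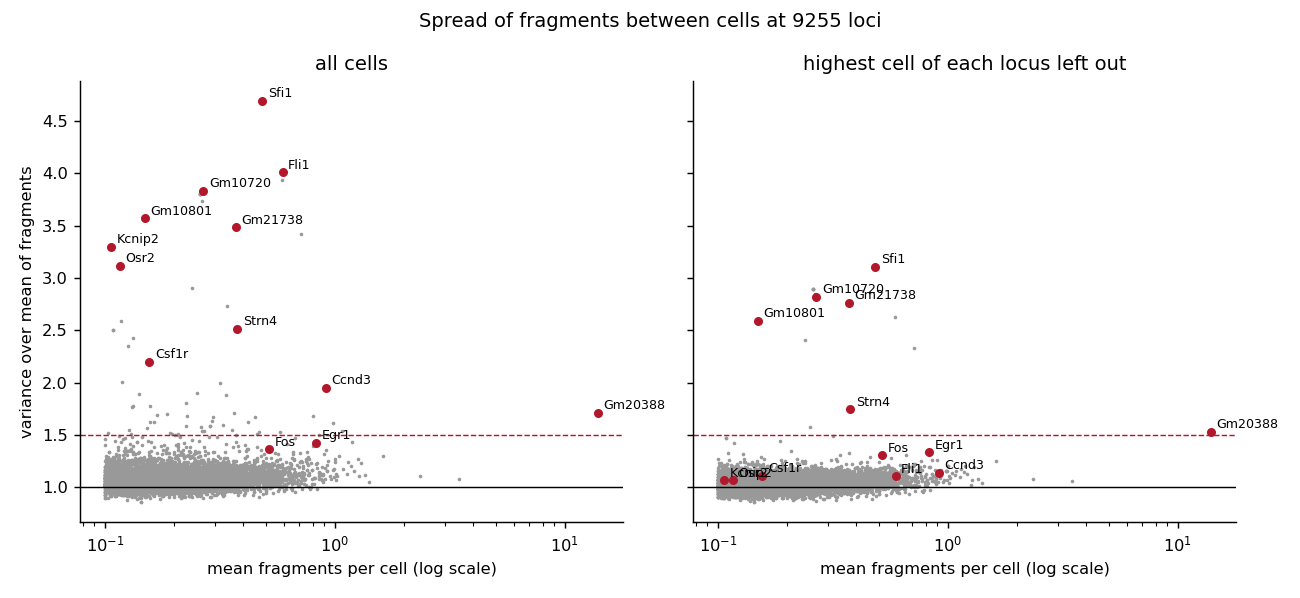
Variance over mean of fragments (y axis) against mean fragments per cell on a log scale (x axis) for 9255 loci, for all 749 cells on the left and without the highest cell of each locus on the right; the solid line at 1 marks sampling and the dashed line 1.5. Fli1 fell from 4.01 to 1.11, whereas Sfi1 and the predicted loci Gm10720, Gm21738 and Gm10801 stayed above 2.5.

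The high counts of these single cells were not limited to the locus. At Fli1 the highest cell had 60 fragments in the 1 Mb on either side, where the mean cell had 1.955, and 378 on the rest of chromosome 9, where the mean was 135.7. St14, which lies near Fli1, had its highest value in the same cell. At Ccnd3 the highest cell had 76 fragments in the flanks against a mean of 6.05. Of the 67 loci, 46 had at least 3 times the mean in the flanks of their highest cell. On the rest of the chromosome, 24 had at least 1.5 times the mean. No value for the other assessed loci is available beside these counts. The counts also include repeats, since the predicted loci at the start of chromosome 9 share peaks, flanks and 1 highest cell. At Kcnip2 and Fgf8, which are neighbours on chromosome 19, the same cell was highest, with 25 fragments against a mean of 6.97 in the flanks of Kcnip2, but with 71 against 76.1 on the rest of the chromosome. By these levels the excess extended into the flanks at 46 of the 67 loci, which are not separate cases, and to the rest of the chromosome at fewer.

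Fragments per chromosome were therefore compared between cells. For each cell, the squared deviations from the mean over 20 chromosomes were summed in units of the mean and divided by 19. Sampling gives an index of about 1. The median index was 2.49, the central 50% of cells lay between 1.59 and 4.38, and the 95th percentile was 17.5. An index under 2 was found in 292 cells (39.0%), of 5 or more in 155 (20.7%) and of 10 or more in 72. The most uneven cell, with an index of 114.5, had 475 fragments on chromosome 10, 3.501 times the mean, and only 5 on chromosome 7, where the mean was 176.6. The next had no fragment on chromosome 9, 1 each on chromosomes 5 and 6, and 3.46 times the mean on chromosome 17.

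The index was only weakly related to depth and promoter share. The logarithm of the index had a Pearson correlation of 0.17 with the logarithm of fragments before the reduction and of 0.025 with the share of fragments in promoter peaks (749 cells). The suffix 2 cells, which are from the same table, had a median index of 3.18, and 144 of 560 had 5 or more. The cause of the unevenness was not tested.

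**Figure D3:**
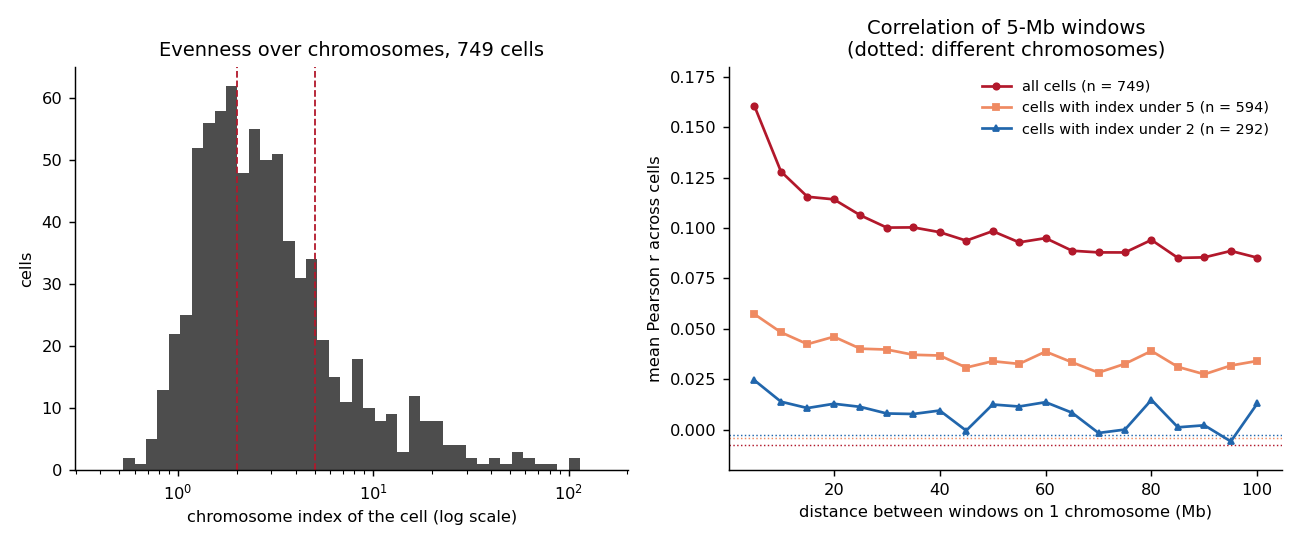
Left, histogram of the chromosome index of the 749 cells on a log scale, with dashed lines at 2 and 5. Right, mean Pearson correlation across cells between 5-Mb windows of a chromosome against their distance in Mb, which was 0.16 at 5 Mb in all cells and 0.0245 in the 292 cells with an index under 2; dotted lines show windows on different chromosomes.

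Distant windows of the same chromosome were also correlated across cells. Across all 749 cells, windows of 5 Mb had a mean correlation of 0.16 with the adjacent window and still of 0.085 with a window 100 Mb away, whereas windows on different chromosomes had -0.0074. In the 594 cells with an index under 5 these values were 0.057, 0.034 and -0.0042, and in the 292 cells with an index under 2 they were 0.0245, 0.013 and -0.0027. The choice of cells by index itself lowers the spread of chromosome totals and with it these correlations, so that their source was not tested. The variance over mean of chromosome totals ran from 3.46 to 6.20 in all cells and from 1.13 to 1.71 in the even cells. Co-variation of 2 loci on 1 chromosome was for this reason not read as a property of the loci.

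Of the 15 loci still at 1.5 or more without their highest cell, most were predicted genes or shared peaks with Sfi1. Sfi1, a centrosomal gene close to the start of the assembled chromosome 11 (3131850 to 3193463), had the highest value of all, 4.69 with and 3.11 without the highest cell, and 3.07 to 4.87 over 10 random reductions. Its highest cells had 26 and 17 fragments while 542 cells had none, and it shares peaks with Drg1 and Eif4enif1. Gm10720 at the start of chromosome 9 shares peaks with several neighbouring predicted genes and had 3.83, or 2.82 without the highest cell. Gm10722, close by, had 2.50 and 1.47. Gm21738 on chromosome 14 had 3.48 and 2.76, and Gm10801 and Gm10800 on chromosome 2 had 3.57 and 2.91, or 2.59 and 2.41 without the highest cell. Of the 67 loci, 20.9% began within 5 Mb of the assembled start of their chromosome, compared with 2.40% of all loci assessed. The 20.9% are 14 loci, many of which share peaks with one another. Among them are predicted genes of chromosome 9, and Sfi1 with Drg1 and Eif4enif1. The share thus counts the same peaks several times. Whether fragments of near-identical copies were divided among the predicted loci was not tested, and their values are uncertain.

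In the 292 cells with an index under 2, Gm10720 had a value of 0.970, Gm10801 of 1.07 and Gm10800 of 0.976, while Gm21738 had 1.46 and Sfi1 6.08. Strn4, a striatin family gene, had 16 and 14 fragments in 2 cells and a value of 2.51, which was 1.74 without the highest cell and 2.90 in the even cells. Ppp5c, a phosphatase gene that lies near Strn4 on chromosome 7, had 1.90, 1.57 and 0.935. Gm20388, which is open in all cells, had 1.71 in all cells and 1.09 in the even cells.

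Among the loci next in order were immediate early genes, which cells switch on within minutes of a stimulus and which include the subunits of the AP-1 transcription factor. When loci were ordered without their highest cell, Egr1, Fosb and Fos were among the first 20, at 1.33, 1.31 and 1.31, beside Itm2b, Pfkl, Tns1, Pelp1, Sik1 and Prpsap2 at 1.31 to 1.44. This order was examined after the data had been seen. With all cells, Egr1, a zinc finger factor, had a variance over mean of 1.42, Fos 1.36, Fosb 1.33 and Jund 1.32, the last 3 being AP-1 subunits. These values were carried by many cells. At Fos, 483 cells had no fragment, 179 had 1, 59 had 2 and 28 had 3 or more, with a maximum of 6. At Egr1, 364 cells had none, 238 had 1, 96 had 2 and 51 had 3 or more, with a maximum of 9. Beyond sampling, the cells differed by a coefficient of variation of 0.83 at Fos, 0.71 at Egr1, 0.71 at Fosb and 0.57 at Jun. Of the 17 immediate early loci, all of which were assessed, 7 had a value of 1.2 or more, against 7.08% of all loci, and 4 without the highest cell of each locus, against 1.24%. These shares were not matched for level. At least 0.3 fragments per cell were found at 14 of the 17 loci, against 1665 of the 9255. Across loci, variance over mean had a Spearman correlation of 0.17 with mean fragments.

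The upstream sequence of 5 of these genes is shown as an example. All 5 correlated with the other members of their list, as given below, but so did Egr1, Zfp36 and Ier2, which are not shown. The stretches are the 250 bases before the start in RefSeq (GRCm38.p6), 5′ to 3′ on the strand of the gene, and lie within peaks of 8.33 kb at Fos, 8.65 kb at Jun, 11.8 kb at Fosb, 10.4 kb at Dusp1 and 8.52 kb at Klf2. Their positions are chr12:85473640-85473889 on the plus strand for Fos, chr4:95052223-95052472 on the minus strand for Jun and chr7:19310046-19310295 on the minus strand for Fosb. Those of Dusp1 and Klf2 are chr17:26508473-26508722 on the minus strand and chr8:72318812-72319061 on the plus strand. Capitals mark the word TGACG, the core of the cAMP response element, on either strand, and the full element TGACGTCA, which contains it.
Fos: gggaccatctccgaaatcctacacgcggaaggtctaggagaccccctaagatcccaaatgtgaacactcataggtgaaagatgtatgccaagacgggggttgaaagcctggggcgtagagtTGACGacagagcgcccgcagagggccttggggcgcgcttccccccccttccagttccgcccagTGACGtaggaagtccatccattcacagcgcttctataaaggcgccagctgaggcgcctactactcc
Jun: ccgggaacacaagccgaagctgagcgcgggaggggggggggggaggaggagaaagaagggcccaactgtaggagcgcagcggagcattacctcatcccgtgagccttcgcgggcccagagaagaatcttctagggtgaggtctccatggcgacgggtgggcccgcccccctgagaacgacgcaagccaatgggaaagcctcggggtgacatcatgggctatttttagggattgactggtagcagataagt
Fosb: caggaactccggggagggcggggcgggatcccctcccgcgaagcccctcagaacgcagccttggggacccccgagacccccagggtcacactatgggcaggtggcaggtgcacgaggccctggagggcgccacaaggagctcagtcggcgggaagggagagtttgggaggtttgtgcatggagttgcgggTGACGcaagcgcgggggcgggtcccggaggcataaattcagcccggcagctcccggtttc
Dusp1: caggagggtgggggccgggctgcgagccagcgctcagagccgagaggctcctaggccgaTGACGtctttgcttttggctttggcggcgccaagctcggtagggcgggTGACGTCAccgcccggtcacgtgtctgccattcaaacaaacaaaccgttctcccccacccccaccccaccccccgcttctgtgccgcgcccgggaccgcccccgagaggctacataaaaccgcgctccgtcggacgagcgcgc
Klf2: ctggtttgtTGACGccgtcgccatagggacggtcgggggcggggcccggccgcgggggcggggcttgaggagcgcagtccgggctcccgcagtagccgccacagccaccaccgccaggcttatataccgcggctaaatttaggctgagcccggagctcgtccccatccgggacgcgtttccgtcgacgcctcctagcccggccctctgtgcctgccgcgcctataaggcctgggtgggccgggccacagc
The word TGACG was present upstream of Fos, Fosb, Dusp1 and Klf2 and absent from this window at Jun, and the full element was present at Dusp1. Of 14 immediate early genes matched in the RefSeq table, 9 contained TGACG and 1 contained TGACGTCA, compared with 17.8% and 1.55% of 32851 promoters. The 9 include Junb, Klf4 and Atf3, whose correlations with the list on other chromosomes were only 0.023, 0.054 and 0.023. Egr1, Zfp36 and Ier2 are not among the 9, and not all of the 17 listed genes were matched. None of the 14 contained the AP-1 word TGANTCA, which 6.75% of all promoters held. Matches describe these windows and are not evidence of binding.

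Fragments were next summed over the peaks of each of 19 gene lists, and cells were compared by these sums. The immediate early list had the highest variance over mean, 1.81, with a mean of 8.50 fragments per cell, a median of 8 and a central 90% of 3 to 16. Its coefficient of variation beyond sampling was 0.31. The value was 1.78 without the highest cell, 1.93 in the 292 even cells and 1.71 in the suffix 2 cells. In the 107 suffix 2 cells with an index under 2 it was 1.34, under the 1.56 of HSC identity, 1.39 of MHC class I and 1.37 of proliferation genes. With each peak counted once per cell, the value fell from 1.81 to 0.996, on the other side of 1. Counting the number of peaks present rather than fragments, the spread was 1.36 times that of independent peaks, whereas the other 18 lists lay between 0.9496 and 1.125. Variance over mean rises with the level of a list, and this list had the highest level. On the scale of the coefficient of variation, 7 sparser lists were above it, and among them all but the platelet and megakaryocyte list had fewer than 1.2 fragments per cell.

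The next lists owed their spread to single cells. The platelet and megakaryocyte list had 1.63, but 1.14 without the highest cell and 1.06 in the even cells, and its highest cell had 37 fragments, as many as the highest cell at Fli1, which is a member. The myeloid list had 1.49, and 1.07 without its highest cell, which had 12 fragments, as had the highest cell at its member Csf1r. The blood transcription factor list, which also contains Fli1, had 1.40 and 1.13. HSC identity genes had 1.17, or 1.15 without the highest cell and 1.07 in the even cells, and aged HSC genes, which the literature reports as higher in old stem cells, had 1.06, 1.04 and 0.985. Multipotent progenitor genes had 1.16 and 1.00 in the even cells, interferon response genes 1.098 and 1.107, MHC class II genes 1.11 and 1.17, MHC class I genes 1.16 and 0.960, Hox A and B genes 1.045 and 1.064, and proliferation genes 1.01 and 1.03. Housekeeping genes had 1.18, or 1.15 without the highest cell.

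The remaining lists, B cell, T and NK cell, erythroid, mast cell and basophil, endothelial and stromal, and tissues other than blood, lay between 0.980 and 1.13 in all cells. In the even cells the endothelial and stromal list reached 1.30 and the other 5 lay between 0.925 and 1.11. None of these remaining lists had more than 8 fragments in any cell, and erythroid, mast cell and T and NK cell lists had at most 3.

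**Figure D4:**
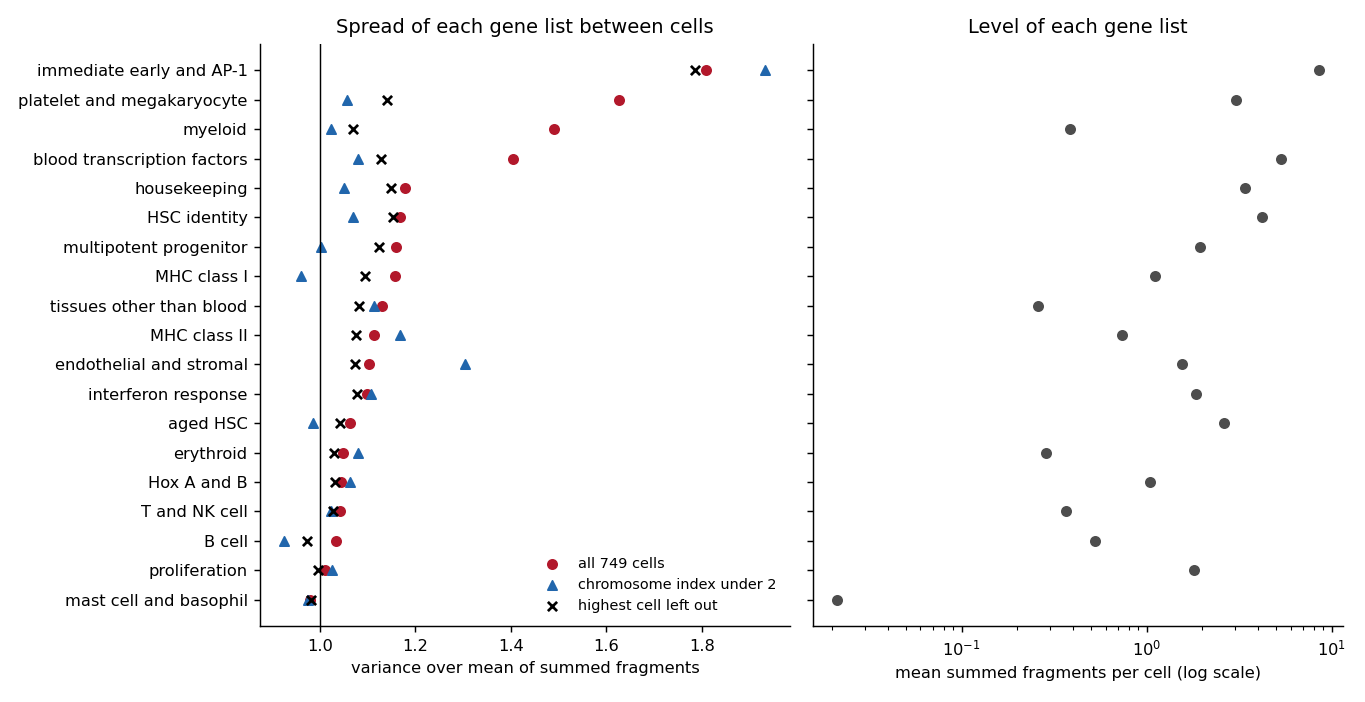
Left, variance over mean of summed fragments for 19 gene lists in all 749 cells (circles), in cells with a chromosome index under 2 (triangles) and without the highest cell (crosses), with sampling at 1; right, mean summed fragments per cell on a log scale. The immediate early list lay at 1.81, 1.93 and 1.78, while the platelet and megakaryocyte list moved from 1.63 to 1.06 and 1.14.

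Co-variation between loci was examined first among the 200 loci of highest variance over mean. Of 19801 pairs without a common peak and either more than 1 Mb apart or on different chromosomes, 835 had a correlation of at least 0.2. Only 65 of these stayed at 0.2 or more when the cell that contributed most was left out, and the cells left out were 18 different cells. All of the 12 highest pairs, at 0.75 to 0.78, linked predicted loci at the start of chromosome 9 with Gm21738 on chromosome 14 or Gm10800 on chromosome 2. Without 1 cell they were 0.66 to 0.72, in suffix 2 cells 0.47 to 0.52 and by Spearman 0.11 to 0.21, but in the 292 even cells only -0.0090 to 0.18. The predicted loci of chromosome 9 share peaks with one another, and several gave identical values. The 12 pairs are therefore not separate cases, and the counts of 835 and 65 pairs include such repeats. Sfi1 correlated with Gm21738 at 0.66 and at 0.56 in the even cells.

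Some pairs of named genes rested on 1 cell. This was so for Fli1 and St14, which had 0.67 in all cells and 0.013 without 1 cell. Osr2 and Esrrg on different chromosomes likewise had 0.55 and -0.055. Sfi1 with Gm21738 did not rest on 1 cell, with 0.59 without it and 0.50 in the suffix 2 cells. These pairs, Sfi1 with Gm21738 among them, were named after their values were seen. No locus reached a correlation of 0.2 with Slamf1, Procr or Clca3a1, for which the highest values were 0.15, 0.18 and 0.17 among 9255 loci.

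To leave out correlation within chromosomes, each locus was then correlated with the summed fragments of the immediate early list on all other chromosomes. Over the 9255 loci, this correlation had a median of -0.0017 and its central 98% lay between -0.087 and 0.092. A value of at least 0.1 was found at 52 loci, or 0.562%. Of the 17 immediate early loci, 8 reached it. Fos had the highest correlation of all loci with 0.20, followed by Egr1 with 0.19, Klf2, a flow-responsive transcription factor, with 0.17 and Jun with 0.15. Fosb was the sixth with 0.15. Dusp1, a MAP kinase phosphatase, had 0.13, Zfp36 0.12 and Ier2 0.11. The remaining 9 immediate early loci lay between -0.042 at Fosl2 and 0.098 at Jund.

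The immediate early loci have more fragments than most, which raises the attainable correlation. Among 1665 loci with at least 0.3 fragments per cell, 20 (1.2%) reached 0.1, and 8 of these were among the 14 immediate early loci at that level. All of these correlations are weak, as most cells had 0 or 1 fragment per locus. In the 292 even cells, Fos had 0.26, Dusp1 0.23, Klf2 0.22, Egr1 0.18 and Jun 0.17. In the suffix 2 cells only Dusp1, Ier2 and Fosb reached 0.1, with 0.12, 0.12 and 0.11, while Fos had 0.099, Egr1 0.076, Klf2 0.0077 and Jun -0.023. The median over the 17 loci was 0.098 in all cells, 0.10 in the even cells, 0.10 with promoter share and depth held constant and 0.052 in suffix 2 cells. For the other lists with an assessed member the median ran from -0.066 to 0.046 in all cells.

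The difference was also expressed in fragments. Cells were ordered by their immediate early fragments on the other chromosomes and divided into 3 groups of similar size, with ties kept together. At Fos, the 283 cells with 6 or fewer such fragments had 0.325 fragments per cell (95% Poisson interval 0.262 to 0.399) and the 224 cells with more than 9 had 0.723 (0.616 to 0.844), a ratio of 2.23. The share of cells with a Fos fragment was 25.4% in the low and 47.3% in the high group. At Klf2 the means were 0.345 (0.286 to 0.413) and 0.636 (0.538 to 0.746), at Egr1 0.657 (0.570 to 0.753) and 1.13 (0.992 to 1.28), and at Jun 0.635 (0.551 to 0.729) and 1.04 (0.904 to 1.19). Fosb, Nr4a2, Dusp1 and Zfp36 had ratios between 1.51 and 1.605, and Nr4a1, Ier2, Jund and Klf4 between 1.31 and 1.415. The housekeeping locus Gapdh had 0.271 (0.212 to 0.343) and 0.367 (0.289 to 0.459) and Actb 0.231 (0.178 to 0.294) and 0.306 (0.240 to 0.386). Their ratios of 1.35 and 1.33 were as large as those of Jund and Ier2, both 1.34. Junb, Klf6, Atf3, Egr3 and Fosl2 had ratios between 0.894 and 1.115.

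**Figure D5:**
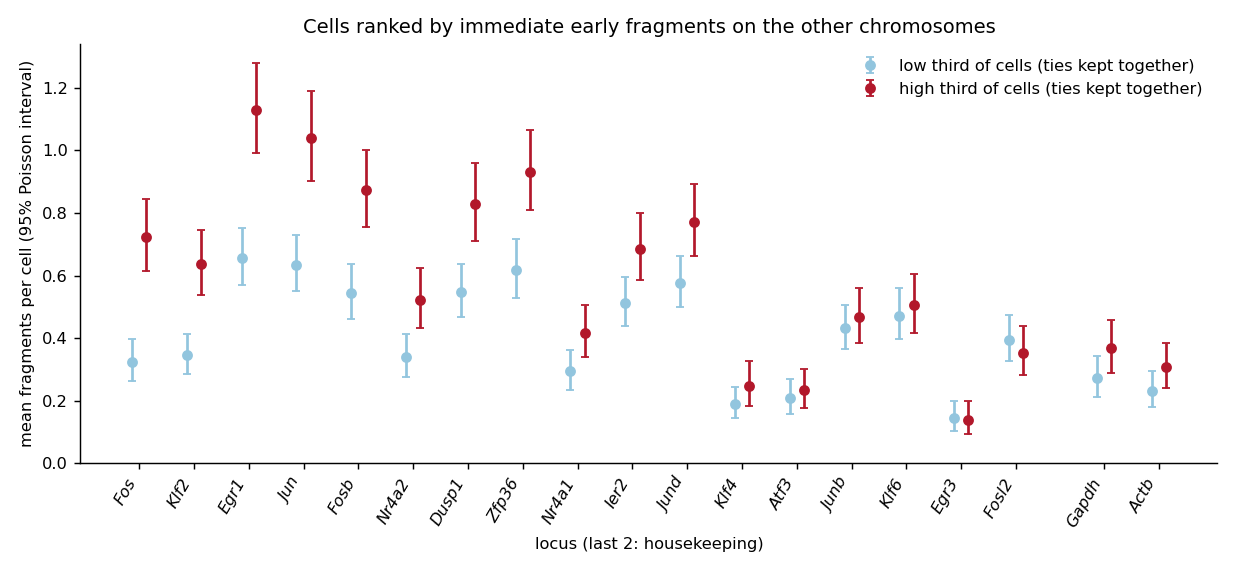
Mean fragments per cell with 95% Poisson intervals at 17 immediate early loci and the housekeeping loci Gapdh and Actb, for the low group (pale) and high group (dark) of cells ordered by immediate early fragments on the other chromosomes. Fos rose from 0.325 to 0.723, whereas Fosl2 had 0.395 in the low and 0.353 in the high group.

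The immediate early sum had a Pearson correlation of -0.15 with the logarithm of depth, of 0.036 with the promoter share and of -0.16 with the logarithm of the chromosome index, over 749 cells. Among the 171 pairs of lists, with common peaks left out, its correlation of 0.15 with housekeeping genes was the highest, which was 0.20 in the even cells and 0.027 in the suffix 2 cells. All other pairs lay between -0.090 and 0.11. Among the HSC identity, aged HSC, platelet and progenitor lists, the 6 pairs lay between -0.076 and 0.039 in all cells. The platelet and megakaryocyte list with the multipotent progenitor list had -0.076 in all cells, -0.186 in the even cells and 0.0057 in the suffix 2 cells. HSC identity with aged HSC genes had 0.010, -0.054 and 0.140. The part of depth and of the chromosome index in the spread of the immediate early sum was not tested beyond the values given.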

How the data were processed

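LT-HSCs of C57BL/6JRj mice were analyzed by single-cell ATAC-Seq. The authors processed the reads with Cell Ranger ATAC 1.2.0 (mm10, GRCm38, per the submitters' processing notes) and deposited counts of cut sites per peak and barcode, without normalization. The rule kept suffix 1 cells of the first table at or above the 10th percentile of counts per cell. Counts were divided by 2 and rounded up to fragments, which were drawn without replacement to 2536 per cell (seed 11). Loci were GENCODE M21 protein-coding genes with 5000 bp upstream. Python 3.11.15, numpy 2.4.6 and scipy 1.17.1 were used. Statistics were tested on simulated data. Doublets were not called, and 39 cells above 3 times the table's median counts were kept. Named were the 12 loci open in most cells, 12 with most fragments per kb, 20 with the highest variance over mean, the 12 highest pairs and genes of fixed lists. The cells, lists and rules were chosen with earlier results of these data known. No p-values were computed, since cells are not replicates. The second table was used only to count its cells and compare barcodes, and suffix 2 cells of the first table only for comparison. The cut sites of a fragment are not independent and PCR duplicates bear on counts, so intervals cover counting error only.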

Additional observations from a re-analysis of the deposited data

Results flagged for a closer look

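The methods give the mice as female. At equal depth, 97 of the 749 cells (12.95%, 95% Clopper-Pearson interval 10.6 to 15.6%) had a fragment in 1 of 9 peaks of chromosome Y. These peaks are outside the comparisons above. Before the reduction in depth these peaks held 436 fragments, all of them in the 8 peaks beyond 90 Mb and none in the remaining peak. The mean cell had 0.148 fragments on chromosome Y and 45.5 on chromosome X. The source of these fragments was not tested, and they were not read as evidence on the sex of the mice.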

How the results depend on the processing

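The number of loci open in at least 50% of cells (90) was 468 with deposited counts without halving, 931 at 2 times the depth and 5 in promoter windows. It was between 63 and 101 under the other alternatives. The number of loci with a variance over mean of at least 1.5 (67) was 6454 without halving, since paired cut sites then count as 2 events, 262 at 2 times the depth, 579 without a common depth, 21 in promoter windows and 23 with at least 0.3 fragments per cell. It was 27 in cells with an index under 2, 25 with an index under 5, 15 without the highest cell of each locus and 0 with each peak counted once. Counted once, a peak adds at most 1, which limits the spread by an amount that was not measured for single loci. The direction then turned, with a variance over mean of 0.851 at Fos, 0.767 at Egr1, 0.9995 at Fli1 and 0.797 at Sfi1, and 0.996 for the immediate early sum, against 1.81 in fragments. That sum gave 2.98 without halving, 2.68 at 2 times the depth, 1.73 in promoter windows and 1.93 in even cells. The median correlation of immediate early loci with their list (0.098) was 0.117 without halving, 0.054 with each peak counted once, 0.166 at 2 times the depth, 0.076 in promoter windows and 0.081 with another seed. Over 10 draws it ranged from 0.075 to 0.114, and the number of variable loci from 55 to 71. Fli1 reversed to 0.934 in even cells. Where no construction is named, the cause was not tested. The even cells, the index under 5 and the cells left out were chosen after seeing the data. Holding promoter share and depth constant and leaving out cells over 3 times the median counts moved none of these results beyond the spread of repeated draws or 1.5 times. No paired analysis was possible because all 749 cells come from a single library with no replicate number.

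With 2536 fragments over 93513 peaks, most loci have 0 or 1 fragment per cell, so that differences between cells at a single locus were detectable only when large. The library cannot be assigned to a CLCA3A1 level.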
